A study of Rattus norvegicus with 12 samples.

Results

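Coenzyme A (CoA) carries acyl groups in fatty acid oxidation, fatty acid synthesis and the citric acid cycle, and the liver makes it from pantothenate, vitamin B5. Pantothenate kinases (Pank1, Pank2 and Pank3) start the synthesis and are held back by CoA and its thioesters, phosphopantothenoylcysteine synthetase (Ppcs) adds cysteine, and CoA synthase (Coasy) completes the molecule. Breakdown runs through nudix hydrolases of peroxisomes (Nudt7 and Nudt19), which cut CoA to phosphopantetheine, and, outside the cell, through the pantetheinase vanin 1 (Vnn1), which splits pantetheine into pantothenate and cysteamine. In mouse liver Vnn1 is known as a target of the nuclear receptor PPAR alpha and rises in fasting.

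These 8 genes were looked up by symbol in a table of 40154 genes measured by RNA sequencing in rat liver, and all 8 were present and passed the filter on low counts that left 15916 genes. Vnn1 was selected on its measured difference in HFD against Control, and the other 7 were taken for their place in the pathway. The 12 liver libraries came from Sprague Dawley rats in 4 groups of 3. The diet was high in fat or normal, each with or without S-allylmercaptocysteine (SAMC), which gives the groups HFD+SAMC (high fat and SAMC), HFD (high fat alone), Control+SAMC (normal diet and SAMC) and Control (normal diet alone). SAMC is an organosulfur compound of aged garlic, and the series concerns fatty liver disease. Replicates are numbered 2, 3 and 4 in HFD and 1, 2 and 3 in the other groups. The labels give no dose, duration, age or sex and do not say that the samples are separate animals, so each p-value reflects only how these libraries vary, and that variation may be technical.

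Total counts ran from 45680738 to 61937544 per library, and the 8 genes together took 0.0371% to 0.0712% of them. All 6 hepatocyte markers were detected, at a summed 85140 to 113500 CPM (counts scaled to a common library size after TMM scaling) in HFD+SAMC, 87900 to 123300 in HFD, 114800 to 167400 in Control+SAMC and 107300 to 298000 in Control. Vnn1 and Nudt19 are also genes of the kidney, whose 4 tubule markers summed to at most 0.243 CPM in any library, with 1 of the 4 at 0 in all 12. Transcripts of the fibrinogen chain Fga stood at 3378 to 3822 CPM in HFD replicates 2 and 3, Control+SAMC replicate 1 and Control replicate 2, while the remaining 8 libraries had 8221 to 18523 CPM. HFD+SAMC replicate 3 carried skeletal muscle transcripts, with 439.7 CPM of Acta1, a gene that reached no more than 0.135 CPM elsewhere. The deposited RPKM values (reads scaled to gene length and library total) of 1 gene, RGD1562465, implied a length of 3377 bp in HFD+SAMC and Control and of 4432 bp in HFD and Control+SAMC. The RPKM values were thus made with 2 length tables, and the 2 sets of libraries cross diet and SAMC. Each contrast in which only diet or only SAMC changes therefore compares a group of 1 library set with a group of the other. Such a difference cannot be told apart from a difference between the sets. Whether the sets differ in more than the length table is not stated. All 8 coenzyme A genes had RPKM values that matched 1 length throughout.

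The pantothenate kinase genes hold microRNAs within their gene bodies, which are shown because the host transcripts are described here. The mature sequences are from RefSeq on build GRCr8, with the seed, bases 2 to 8, in capitals. The copy in Pank1 lies at chr1:241750431-241750453 on the minus strand, that in Pank2 at chr3:138963278-138963300 on the plus strand and that in Pank3 at chr10:20748525-20748547 on the plus strand.
miR-107-3p (in Pank1): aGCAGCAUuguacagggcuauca
miR-103-3p (in Pank2 and in Pank3): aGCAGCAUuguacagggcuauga
They share the seed GCAGCAU, which 2 of the 693 mature rat sequences in the table hold, and 22 of 23 bases. The difference is C22G, counted from the 5′ end with the miR-107-3p base first. The 3 hairpin genes had 0 to 2 counts in every library, so the microRNAs themselves were not measurable here.

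The promoters of the 3 kinase genes, 250 bases before to 50 bases after the transcript start, are shown because Pank1 and Pank2 had the highest correlation of any pair among the 8 genes over the 12 libraries. They are from RefSeq on GRCr8 at chr1:241806414-241806713 (minus strand), chr3:138936258-138936557 (plus strand) and chr10:20732941-20733240 (plus strand). Capitals mark the letters CCAAT or AGGTCA on either strand, so that ATTGG is CCAAT read from the opposite strand.
Pank1: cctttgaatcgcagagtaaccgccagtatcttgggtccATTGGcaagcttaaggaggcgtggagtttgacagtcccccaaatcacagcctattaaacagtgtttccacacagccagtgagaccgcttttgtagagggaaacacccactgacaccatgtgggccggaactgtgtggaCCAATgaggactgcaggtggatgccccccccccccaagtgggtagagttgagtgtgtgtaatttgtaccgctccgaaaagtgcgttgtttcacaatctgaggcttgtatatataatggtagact
Pank2: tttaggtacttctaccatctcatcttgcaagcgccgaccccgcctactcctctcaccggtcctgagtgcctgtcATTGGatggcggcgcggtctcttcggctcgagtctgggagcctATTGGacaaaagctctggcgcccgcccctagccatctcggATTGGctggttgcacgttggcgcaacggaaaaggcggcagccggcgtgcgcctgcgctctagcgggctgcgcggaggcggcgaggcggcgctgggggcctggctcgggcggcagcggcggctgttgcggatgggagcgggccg
Pank3: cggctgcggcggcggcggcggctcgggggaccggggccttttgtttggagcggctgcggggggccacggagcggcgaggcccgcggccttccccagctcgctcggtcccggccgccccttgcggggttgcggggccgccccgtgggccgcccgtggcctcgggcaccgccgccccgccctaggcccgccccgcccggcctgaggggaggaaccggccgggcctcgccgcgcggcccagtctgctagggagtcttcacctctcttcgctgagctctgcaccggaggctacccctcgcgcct
CCAAT occurred at -212 and -74 from the start in Pank1 and at -176, -133 and -93 in Pank2. The Pank3 window held neither motif and had a GC content of 79.7%, against 50.7% in Pank1 and 68.0% in Pank2. Of 33469 promoter windows of this length, 37.5% held CCAAT and 16.2% held AGGTCA, the hexamer that nuclear receptors such as PPAR alpha bind as a repeat. Entries were found for 7 of the 8 genes, all but Vnn1. Among the 7, AGGTCA occurred in Ppcs, at -155, and a direct repeat of AGGTCA with 1 base between (either strand) in none, against 0.0538% of all windows. These matches describe letters and not binding.

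Vnn1 was higher in HFD+SAMC than in Control+SAMC, by the largest difference of the 8 genes. The gene lies on chromosome 1 at 22614832 to 22625134 on the minus strand in the deposited coordinates, whose build is not named. It had 189, 104 and 114 CPM in HFD+SAMC replicates 1, 2 and 3, against 29.4, 32.9 and 32.2 CPM in Control+SAMC. In the groups without SAMC, on which it was chosen, it had 102, 108 and 93.4 CPM in HFD replicates 2, 3 and 4, against 49.4, 35.8 and 30.2 CPM in Control. Every high fat library lay above every normal diet library, and HFD+SAMC replicate 1 stood above the other 5 high fat libraries. These values rested on 1345 to 12275 counts per library.

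Of 11 lists of cell type and tissue markers, 3 had summed levels that did not overlap between HFD+SAMC and Control+SAMC. Of all genes tested, 17.8% did not overlap in this contrast. Hepatocyte markers summed to 85140 to 113500 CPM in HFD+SAMC, against 114800 to 167400 CPM in Control+SAMC. Most of this sum was Alb, with means of 81304 CPM in HFD+SAMC and 112084 CPM in Control+SAMC. Estimates in this contrast were below 0 for 5 of these markers and above 0 for 1, Apoa1. The 3 exocrine pancreas markers summed to 7.95 to 50.8 CPM in HFD+SAMC, against 81.7 to 202 CPM in Control+SAMC. Most of this sum was Cpa1, with means of 21.6 CPM in HFD+SAMC and 124 CPM in Control+SAMC. Cela1 had the higher mean in HFD+SAMC, 1.74 CPM against 1.25 CPM, with overlapping libraries. Prss1 reached at most 0.0154 CPM in any library. The 4 skeletal muscle markers summed to 0.220 to 675 CPM in HFD+SAMC, against 0.0633 to 0.164 CPM in Control+SAMC. Acta1, Ckm and Myh4 were at 0 in every Control+SAMC library, so the sum there was Tnnt3 alone, near the floor. Between HFD and Control 4 lists did not overlap, and 14.7% of all genes tested did not. Kupffer cell and macrophage markers (8 genes, all detected) stood at 566 to 672 CPM in HFD, against 319 to 558 CPM in Control. All 8 estimates were above 0. The 6 stellate cell markers stood at 112 to 134 CPM in HFD, against 106.9 to 109.8 CPM in Control. The largest part of this sum was Reln, with means of 70.7 CPM in HFD and 60.3 CPM in Control. Estimates were above 0 for 4 of these markers and below 0 for 2, Dcn and Pdgfrb, and each of the 6 overlapped on its own. Sinusoidal endothelial markers (5 genes) had 237 to 250 CPM in HFD, against 280 to 308 CPM in Control. Estimates were below 0 for 4 of them and above 0 for 1, Pecam1, and only Kdr and Clec4g did not overlap on their own. Erythroid markers (4 genes) had 78.3 to 96.5 CPM in HFD, against 120 to 164 CPM in Control, with all 4 estimates below 0. Every marker of these 7 lists had a count in some library, though not in every group. The part of these markers in the Vnn1 differences was not tested.

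The test of the diet difference used HFD+SAMC against Control+SAMC. The 6 libraries that had led to the choice of Vnn1 do not enter this difference, but they share in the estimate of spread behind its p, and a result averaged over all 12 libraries was known before. Fitted on the 6 libraries of the contrast alone, the log2 difference was 2.10 with an adjusted p of 0.0213 in edgeR. Vnn1 averaged 136 ± 46.6 CPM in HFD+SAMC and 31.5 ± 1.87 CPM in Control+SAMC (SD, n = 3 each). It rose 4.32-fold, a log2 fold change of 2.11 ± 0.23 (SE), with an adjusted p of 0.00952 in edgeR's quasi-likelihood test over all 15916 genes. Of those genes 0.0628% passed in this contrast, 10 in all, and of the 8 coenzyme A genes 1 did. The 95% interval of the log2 difference ran from 1.61 to 2.61. The call was lost without Control+SAMC replicate 2 (log2 2.14, adjusted p = 0.0656) and without the 4 low-fibrinogen libraries (log2 2.06, adjusted p = 0.0778). Without HFD+SAMC replicate 3, the library with muscle transcripts, the log2 difference was 2.22 and the adjusted p 0.0259. HFD+SAMC and Control+SAMC also lie in different library sets, so the diet difference in this contrast cannot be told apart from a set difference. In bulk liver a change in RNA per cell cannot be told apart from a change in the number of cells that carry it.

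In HFD against Control, where Vnn1 was chosen, its log2 difference of 1.39 ± 0.23 is a description and was not tested. The 4 groups in order of mean Vnn1 level were HFD+SAMC, HFD, Control and Control+SAMC. HFD+SAMC overlapped HFD, and Control overlapped Control+SAMC, while HFD and Control did not overlap. Within the sets of libraries that share a length table, the log2 difference was 1.82 ± 0.23 in HFD+SAMC against Control and 1.68 ± 0.23 in HFD against Control+SAMC. Both share libraries with the contrast of the choice.

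**Figure D1:**
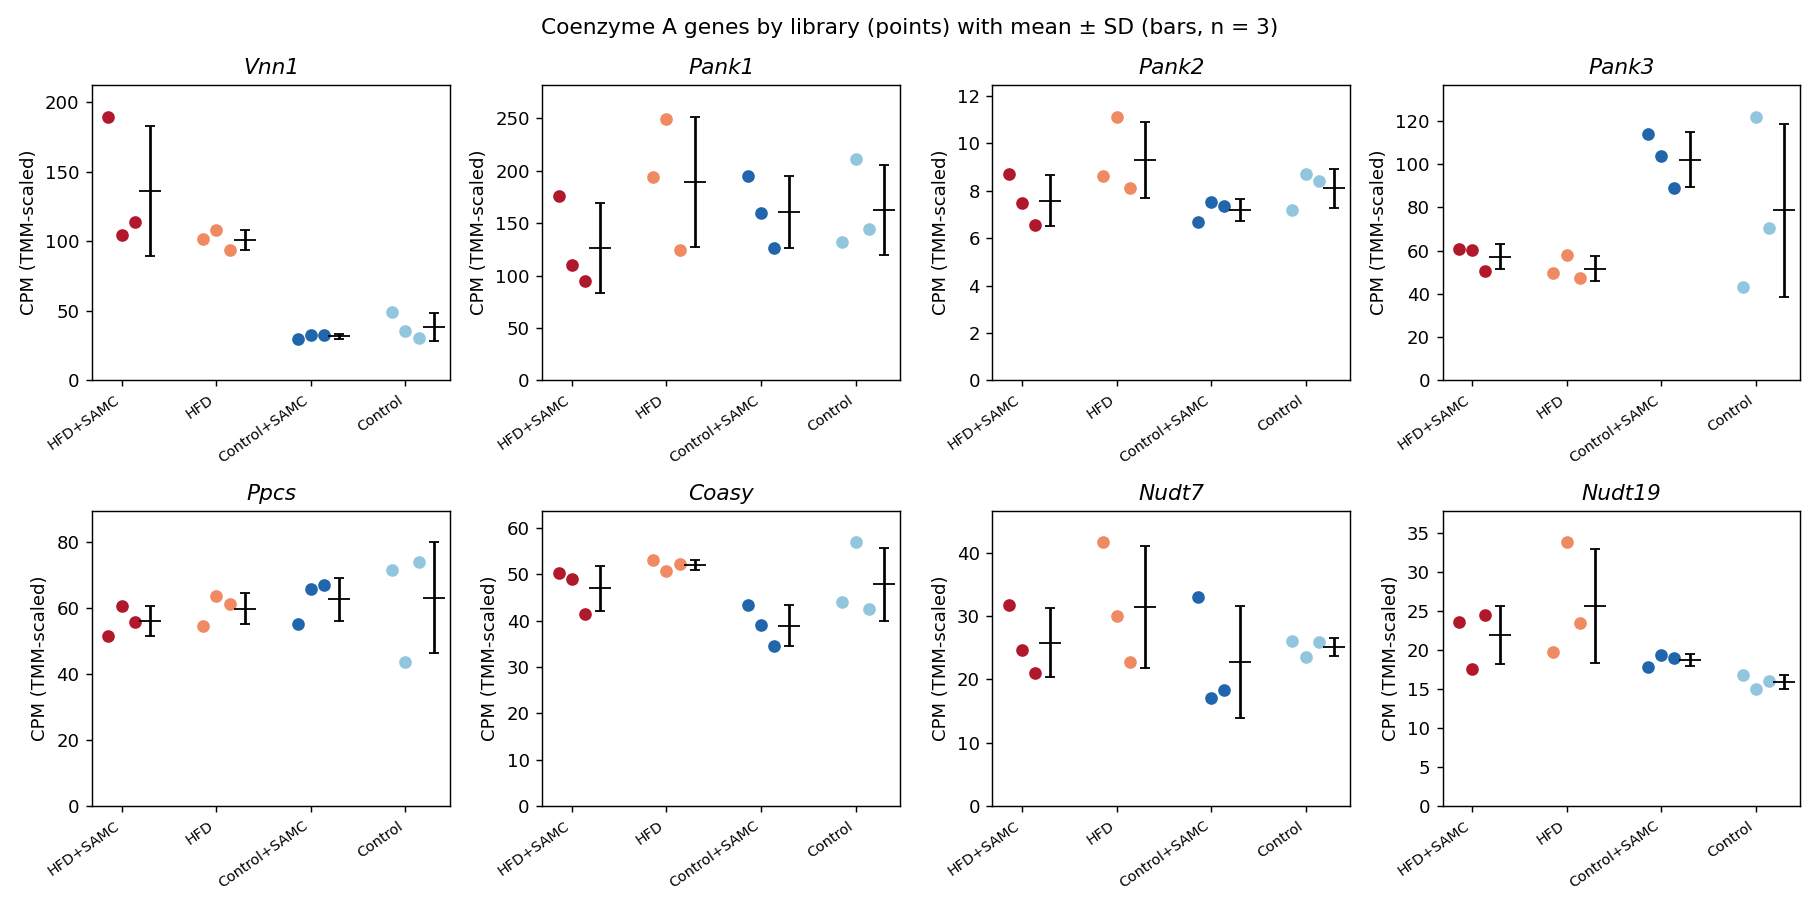
TMM-scaled CPM of the 8 coenzyme A genes (vertical axis, from 0, its own range per gene) in each library, by group; points are libraries in order of replicate number, and bars are mean ± SD of 3. For Vnn1 the 6 high fat libraries lie at 93.4 to 189 CPM, above the 6 normal diet libraries at 29.4 to 49.4 CPM; in the other panels most groups overlap.

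The pantothenate kinases did not pass the test in HFD+SAMC against Control+SAMC. Pank3 came nearest and had the opposite sign to Vnn1. It had 61.0, 60.2 and 50.5 CPM in HFD+SAMC, against 114, 104 and 88.9 CPM in Control+SAMC. All 3 HFD+SAMC libraries were below all 3 Control+SAMC libraries, with a log2 difference of -0.84 ± 0.28 and an adjusted p of 0.328 in edgeR. The unadjusted p of that difference was 0.0128. The groups did not overlap for 2 of the 8 genes, Vnn1 and Pank3, and for 17.8% of all genes tested, so for Pank3 the separation is of a common kind.

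Without SAMC, Pank3 had 49.6, 58.0 and 47.3 CPM in HFD, against 43.3, 122 and 70.4 CPM in Control. The Control libraries spanned the HFD values and the fitted log2 difference was -0.60 ± 0.28, a description. It was -0.14 without Control replicate 2, whose 122 CPM was the highest value of the gene. Within the library sets, Pank3 differed by -0.46 ± 0.28 in HFD+SAMC against Control and by -0.98 ± 0.28 in HFD against Control+SAMC.

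Pank1, the kinase known as the main liver form in mice, had 176, 110 and 94.4 CPM in HFD+SAMC, against 195, 160 and 126 CPM in Control+SAMC. The groups overlapped, with a log2 difference of -0.34 ± 0.30 and an adjusted p of 0.750 in edgeR. In HFD it had 194, 249 and 125 CPM, against 132, 212 and 144 CPM in Control, and the fitted difference was 0.22 ± 0.30. The 4 highest Pank1 values of all 12 libraries, 194 to 249 CPM, were in the 4 low-fibrinogen libraries, and the part of this in the Pank1 differences was not tested. Pank2, the kinase of mitochondria in humans, had 8.72, 7.48 and 6.56 CPM in HFD+SAMC, against 6.67, 7.54 and 7.36 CPM in Control+SAMC. Its difference of 0.08 ± 0.17 had a 95% interval of -0.29 to 0.44 and an adjusted p of 0.918 in edgeR. In HFD it had 8.62, 11.1 and 8.12 CPM, against 7.18, 8.71 and 8.41 CPM in Control, overlapping values with a fitted difference of 0.20 ± 0.17. Pank1 lies on chromosome 1 at 253115400 to 253189643 (minus strand), Pank2 on chromosome 3 at 123807911 to 123841797 (plus strand) and Pank3 on chromosome 10 at 20591432 to 20615258 (plus strand) in the deposited coordinates.

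Ppcs and Coasy, which act after the kinases, also did not pass. Ppcs had 51.6, 60.7 and 55.8 CPM in HFD+SAMC, against 55.1, 65.8 and 67.0 CPM in Control+SAMC. The log2 difference was -0.16 ± 0.18 with an adjusted p of 0.820 in edgeR. In HFD it had 54.5, 63.6 and 61.3 CPM, against 71.7, 43.7 and 73.9 CPM in Control, so that the low value of Control replicate 2 lay below every HFD library. The fitted difference was -0.08 ± 0.18. Coasy had 50.4, 49.1 and 41.4 CPM in HFD+SAMC, against 43.4, 39.0 and 34.5 CPM in Control+SAMC. The lowest HFD+SAMC value lay below the highest Control+SAMC value, and the log2 difference of 0.27 ± 0.14 had an adjusted p of 0.513 in edgeR. Coasy had 53.1, 50.8 and 52.3 CPM in HFD, against 44.1, 56.9 and 42.6 CPM in Control, with a fitted difference of 0.12 ± 0.14. Ppcs lies on chromosome 5 at 138466298 to 138470108 (minus strand) and Coasy on chromosome 10 at 88992413 to 88996677 (plus strand).

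The nudix hydrolases of CoA breakdown were not called either. Nudt19, which takes CoA and CoA esters in mouse kidney, had 23.7, 17.6 and 24.5 CPM in HFD+SAMC, against 17.9, 19.4 and 19.0 CPM in Control+SAMC. HFD+SAMC replicate 2 lay below all Control+SAMC values and the other HFD+SAMC libraries above them, and the log2 difference was 0.22 ± 0.19 with an adjusted p of 0.727 in edgeR. In HFD it had 19.7, 33.8 and 23.4 CPM, against 16.8, 15.0 and 16.1 CPM in Control, which did not overlap. That difference of 0.68 ± 0.19 is a description, and it was 0.43 without HFD replicate 3. Groups of this contrast did not overlap for Nudt19 and Vnn1 among the 8 and for 14.7% of all genes, from which nothing is read here since Vnn1 was chosen in it. Within the library sets the Nudt19 difference was 0.46 ± 0.19 in HFD+SAMC against Control and 0.45 ± 0.19 in HFD against Control+SAMC.

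Nudt7, which in mouse liver peroxisomes cuts CoA and short acyl CoA esters, had 31.8, 24.6 and 21.0 CPM in HFD+SAMC, against 33.0, 17.0 and 18.3 CPM in Control+SAMC. The difference of 0.18 ± 0.27 had an adjusted p of 0.875 in edgeR and a 95% interval of -0.41 to 0.77. In HFD it had 41.7, 30.0 and 22.7 CPM, against 26.0, 23.6 and 25.9 CPM in Control, with the HFD libraries on both sides of the Control values and a fitted difference of 0.32 ± 0.27. That difference turned to -0.20 without the 4 low-fibrinogen libraries. Nudt7 lies on chromosome 19 at 46455745 to 46470070 (plus strand) and Nudt19 on chromosome 1 at 91820317 to 91845215 (minus strand).

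For the other 5 genes the differences within the library sets were smaller than for Vnn1. In HFD+SAMC against Control they were -0.36 for Pank1, -0.09 for Pank2, -0.17 for Ppcs, -0.03 for Coasy and 0.04 for Nudt7. In HFD against Control+SAMC they were 0.24 for Pank1, 0.37 for Pank2, -0.07 for Ppcs, 0.42 for Coasy and 0.47 for Nudt7. Pank1, Pank2 and Coasy thus had opposite signs in the 2 sets.

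**Figure D2:**
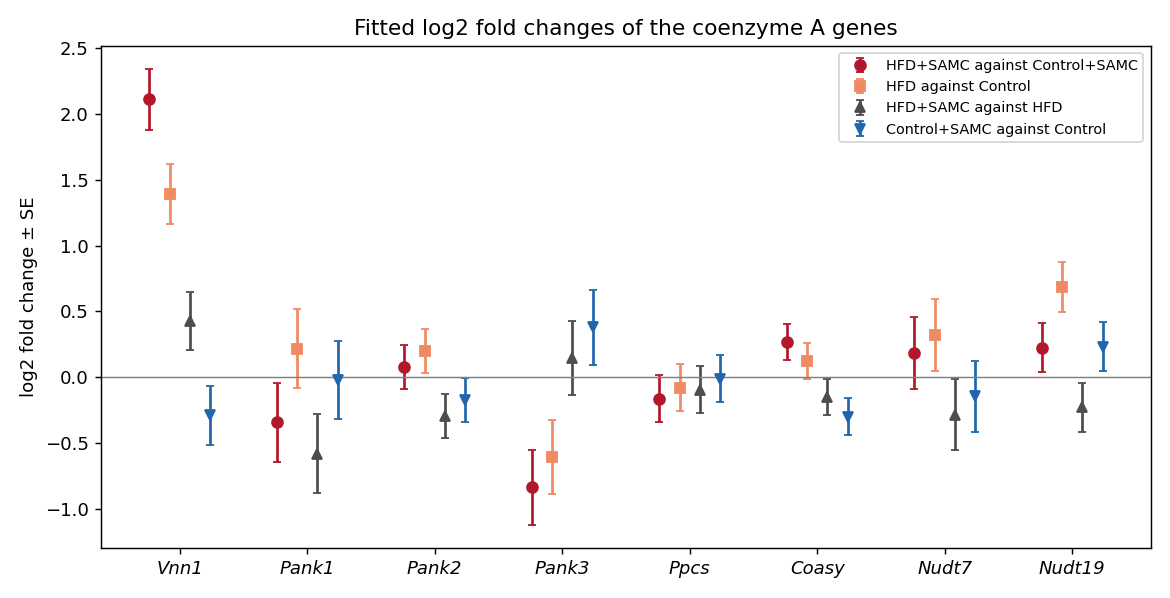
Fitted log2 fold change (vertical axis) ± SE of each coenzyme A gene in 4 contrasts, with the first named group of each contrast over the other. Vnn1 stands at 2.11 in HFD+SAMC against Control+SAMC and at 1.39 in HFD against Control; no other point exceeds 0.68, and the lowest is Pank3 at -0.84.

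SAMC differences were smaller than the diet difference of Vnn1, and none of the 8 genes passed in either diet. HFD+SAMC against HFD shares the HFD libraries with the contrast in which Vnn1 was chosen. Its groups lie in different library sets, as do those of Control+SAMC against Control. The SAMC difference within either diet thus cannot be told apart from a set difference. Vnn1 differed by 0.43 ± 0.22 on the log2 scale (adjusted p = 0.526 in edgeR), with a 95% interval of -0.06 to 0.91. The value was 0.11 without HFD+SAMC replicate 1, the library with the highest Vnn1. Pank1 differed by -0.58 ± 0.30 (adjusted p = 0.526 in edgeR) and by 0.03 without the 4 low-fibrinogen libraries, 2 of which are HFD libraries. Coasy was lower in all 3 HFD+SAMC libraries than in all 3 HFD libraries, with a difference of -0.15 ± 0.14 and an adjusted p of 0.741 in edgeR. It was the 1 gene of the 8 without overlap, as were 18.8% of all genes. The other 5 genes lay between -0.29 and 0.15. In this contrast 0.0503% of genes passed in edgeR, 8 in all. Of the 8 coenzyme A genes none had an unadjusted p under 0.05, against 10.6% of all genes, and none passed in DESeq2, against 1.45%.

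On the normal diet, Control+SAMC against Control shares the Control libraries with the contrast of the choice. Vnn1 differed by -0.29 ± 0.22 (adjusted p = 0.733 in edgeR), with a 95% interval of -0.77 to 0.20. Coasy differed by -0.30 ± 0.14 (adjusted p = 0.510 in edgeR). Nudt19 was higher in all 3 Control+SAMC libraries than in the Control libraries, by 0.23 ± 0.19 (adjusted p = 0.748 in edgeR). It was the 1 gene of the 8 without overlap, and 13.5% of all genes had none. The other 5 genes lay between -0.17 for Pank2 and 0.38 for Pank3. Of all genes 0.119% passed in edgeR, 19 in all. None of the 8 had an unadjusted p under 0.05, against 9.78% of all genes, and none passed in DESeq2, against 1.24%.

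Averaged over both diets, the SAMC difference was 0.07 ± 0.16 for Vnn1 (adjusted p = 0.903 in edgeR) and -0.22 ± 0.10 for Coasy (adjusted p = 0.373 in edgeR). The Coasy value had an unadjusted p of 0.0402, the only 1 of the 8 under 0.05, where 12.4% of all genes were. After adjustment 0 of the 8 and 0.220% of all genes passed. The interaction, which asks whether SAMC differed between the diets, was 0.72 ± 0.32 for Vnn1 with an unadjusted p of 0.0417 and an adjusted p of 0.662 in edgeR. It was 0.40 without HFD+SAMC replicate 1. The other 7 genes lay between -0.56 for Pank1 and 0.15 for Coasy. For the interaction 1 of the 8 genes, Vnn1, and 7.41% of all genes had an unadjusted p under 0.05. After adjustment 0 of the 8 passed in edgeR or DESeq2, against 0.145% of all genes in edgeR and 0.606% in DESeq2. The interaction coincides with the 2 library sets and cannot be told apart from them.

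Levels of different genes were compared per length, as deposited RPKM. Vnn1 ranked highest of the 8 in the high fat groups, at 62.0 ± 21.9 RPKM in HFD+SAMC and 46.8 ± 6.50 RPKM in HFD. It took rank 6 at 13.0 ± 0.290 RPKM in Control+SAMC and rank 4 at 14.7 ± 4.92 RPKM in Control (SD, n = 3 each). In both high fat groups its libraries lay above those of Ppcs, the next gene, at 31.7 ± 2.79 RPKM in HFD+SAMC and 34.5 ± 4.76 RPKM in HFD. On the normal diet Ppcs ranked first, at 32.1 ± 2.12 RPKM in Control+SAMC and 30.1 ± 10.2 RPKM in Control. In Control, Vnn1 overlapped Coasy above it and Pank1 below it, so their order is not resolved.

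The summed RPKM of the 8 genes was 35.3% Vnn1 in HFD+SAMC and 26.5% in HFD, against 11.0% in Control+SAMC and 12.8% in Control. Pank2 ranked last in all 4 groups, at 3.81 ± 0.606 RPKM in HFD+SAMC, 4.76 ± 1.19 RPKM in HFD, 3.26 ± 0.0690 RPKM in Control+SAMC and 3.34 ± 0.174 RPKM in Control. It did not overlap the gene ranked above it in any group. Among the kinases Pank1 had the higher level and Pank3 the next in each group on this scale, though their libraries overlapped in every group but HFD.

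**Figure D3:**
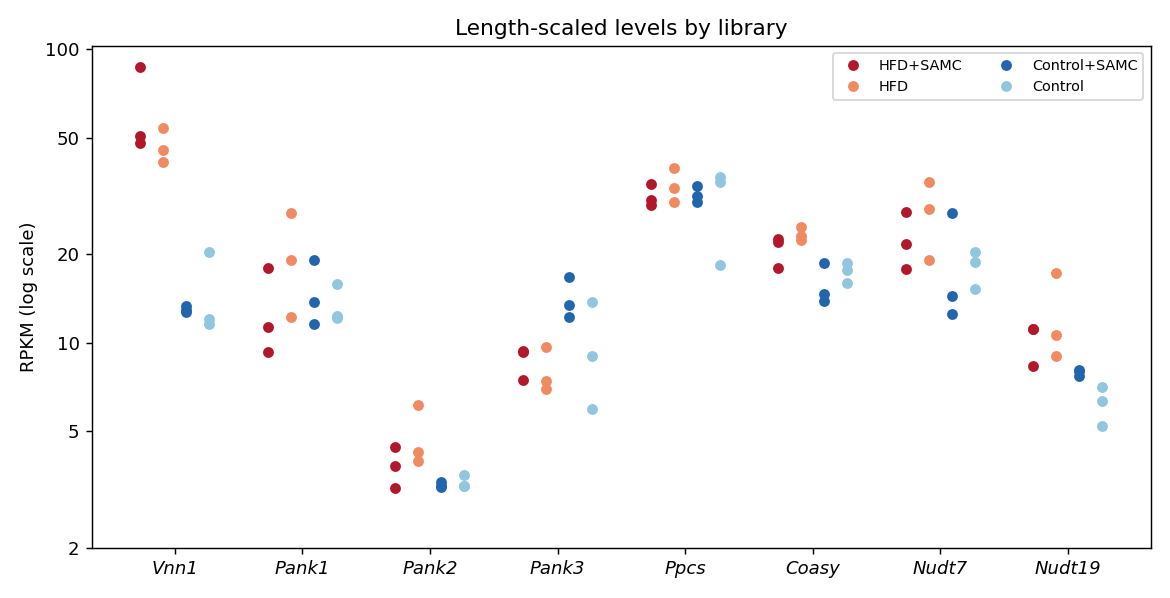
RPKM of the 8 coenzyme A genes on a log axis, 1 point per library, with the 4 groups side by side within each gene. Vnn1 averages 62.0 in HFD+SAMC and 46.8 in HFD, above every other gene, and 13.0 in Control+SAMC and 14.7 in Control, among the others; Pank2 is lowest throughout.

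The wider pathway was described with a list of 31 genes of CoA synthesis, transport, breakdown, cysteamine and taurine metabolism, and phosphopantetheine transfer. Of these, 30 were in the table and tested, and Vnn2 was not analysed here. In HFD+SAMC against Control+SAMC 1 passed as higher in edgeR, Vnn1 itself, and 0 passed as lower, against 0.0628% of all genes in either direction. An unadjusted p under 0.05 was found for 7 of the 30 and for 10.9% of all genes. The groups did not overlap for 4 higher and 5 lower genes of the list, and for 17.8% of all genes in either direction. The estimates were above 0 for 16 genes and below 0 for 14, with a median of 0.06, against 0.01 over all genes. The lowest was Fasn, fatty acid synthase, whose carrier domain bears a phosphopantetheine arm, at -2.11 ± 0.60 with an adjusted p of 0.269 in edgeR. Fasn had 160, 258 and 135 CPM in HFD+SAMC, against 877, 804 and 710 CPM in Control+SAMC, and the groups did not overlap. DESeq2 called 3 of the 30 in this contrast, Vnn1, Fasn and Gadl1, and 1.46% of all genes.

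In the other tested contrasts 0 of the 30 passed in edgeR. The number with an unadjusted p under 0.05 was 4 in HFD+SAMC against HFD, 7 in Control+SAMC against Control, 8 for SAMC averaged over diet and 4 for the interaction. The shares of all genes at that threshold were 10.6%, 9.78%, 12.4% and 7.41% in the same order. DESeq2 called 2 of the 30 for SAMC averaged over diet, Aldh1l1 and Slc5a6, the pantothenate carrier of the plasma membrane, and 0 in the other 3 contrasts. It called 2.30% of all genes for SAMC averaged over diet, and 0.606% to 1.45% in the other 3. The highest and lowest estimates were Aldh1l1 at 0.95 and Enpp2 at -1.13 in HFD+SAMC against HFD. In Control+SAMC against Control they were Aldh1l1 at 0.90 and Slc25a42, a mitochondrial CoA carrier, at -0.62. They were Aldh1l1 at 0.93 and Enpp2 at -0.66 for SAMC averaged over diet, and Ppcdc at 0.96 and Gadl1 at -1.49 for the interaction. Enpp2 was put on the list under breakdown, but a part of it in CoA breakdown is not shown here. Its values are not read as a change in that breakdown.

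A pair of list genes outside the naming rule were added after their values were seen, for their place beside the 8 genes. Vnn3, the vanin that neighbours Vnn1 on chromosome 1 at 22649114 to 22661376, had 25.4, 18.7 and 25.0 CPM in HFD+SAMC, against 21.7, 21.1 and 20.8 CPM in Control+SAMC. These groups overlapped, and the log2 difference was 0.12 ± 0.17 with an adjusted p of 0.870 in edgeR. Ppcdc, which acts between Ppcs and Coasy, had 3.40, 3.48 and 2.99 CPM in HFD+SAMC, against 2.36, 1.94 and 1.70 CPM in Control+SAMC. Its groups did not overlap, as for 17.8% of all genes in this contrast, and the difference of 0.72 ± 0.25 had an adjusted p of 0.337 in edgeR.

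Since Vnn1 is a PPAR alpha target in mice, 20 genes widely used as readouts of that receptor in rodent liver were set beside it, of which 19 were tested and Acaa1a was not analysed here. In HFD+SAMC against Control+SAMC 0 of the 19 passed in edgeR and DESeq2 called 3, against 1.46% of all genes. An unadjusted p under 0.05 was found for 8 of the 19 and for 10.9% of all genes. The 3 were Acot1 and Ehhadh, with positive values, and Cyp4a1, with a negative one. Estimates were above 0 for 9 genes and below 0 for 10, with a median of -0.00, against 0.01 over all genes. The highest was Acot1, a cytosolic acyl CoA thioesterase, at 5.13 ± 1.14 with an adjusted p of 0.170 in edgeR, and the lowest was Pdk4, an inhibitor of pyruvate dehydrogenase, at -1.11 ± 1.03. In the other 4 tested contrasts 0 of the 19 passed in edgeR or DESeq2. Unadjusted p-values under 0.05 numbered 2 in HFD+SAMC against HFD, 3 in Control+SAMC against Control, 5 for SAMC averaged over diet and 0 for the interaction, beside the shares of all genes given for the pathway list.

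In HFD+SAMC against HFD the highest and lowest estimates were Ehhadh at 0.61 and Cyp4a8 at -2.27. The lowest in Control+SAMC against Control was Acot1 at -1.51. For SAMC averaged over diet the highest and lowest were Ehhadh at 0.40 and Cyp4a8 at -1.24, and for the interaction Acot1 at 1.28 and Cyp4a8 at -2.06.

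The genes whose log2 CPM followed Vnn1 most closely over the 12 libraries were named from 10168 genes by Pearson correlation, as a description with no p, since all values share libraries and the diet groups. The highest were Acot1 (r = 0.94), Serhl2 (r = 0.91), Mpv17l (r = 0.91), Ehhadh (r = 0.90) and Josd2 (r = 0.90). Ehhadh, an enzyme of peroxisomal fatty acid oxidation, had 919, 458 and 476 CPM in HFD+SAMC, 318, 442 and 457 CPM in HFD, 201, 256 and 195 CPM in Control+SAMC and 154, 223 and 190 CPM in Control. Its highest library was HFD+SAMC replicate 1, as for Vnn1. Acot1 had 149.9, 32.5 and 36.5 CPM in HFD+SAMC, 91.5, 151 and 14.4 CPM in HFD, 1.58, 2.03 and 2.64 CPM in Control+SAMC and 13.2, 1.74 and 2.78 CPM in Control. It spread over a wider range within the high fat groups than Vnn1 did. Acot1 and the Cyp4a genes have close copies that can share reads, so their values are uncertain. In HFD+SAMC against Control+SAMC, Josd2 passed in edgeR with an adjusted p of 0.0442 and a log2 difference of 0.83. It was named for following Vnn1 over libraries that include those of this contrast, so this p is not separate evidence.

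The lowest correlations were those of Scd (r = -0.95), Slc18a2 (r = -0.93), Cdc37l1 (r = -0.92), Mapk6 (r = -0.92) and Mcfd2 (r = -0.88). Scd, stearoyl CoA desaturase, which makes monounsaturated fatty acids, had 0.355, 0.737 and 2.58 CPM in HFD+SAMC, 0.665, 2.40 and 10.1 CPM in HFD, 105, 99.5 and 208 CPM in Control+SAMC and 58.1, 268 and 168 CPM in Control. Its high fat libraries all lay below its normal diet libraries. The log2 difference in HFD+SAMC against Control+SAMC was -6.81, with an adjusted p of 0.0963 in edgeR. Scd was named by its correlation with Vnn1 over these same libraries, so neither value is separate evidence.

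**Figure D4:**
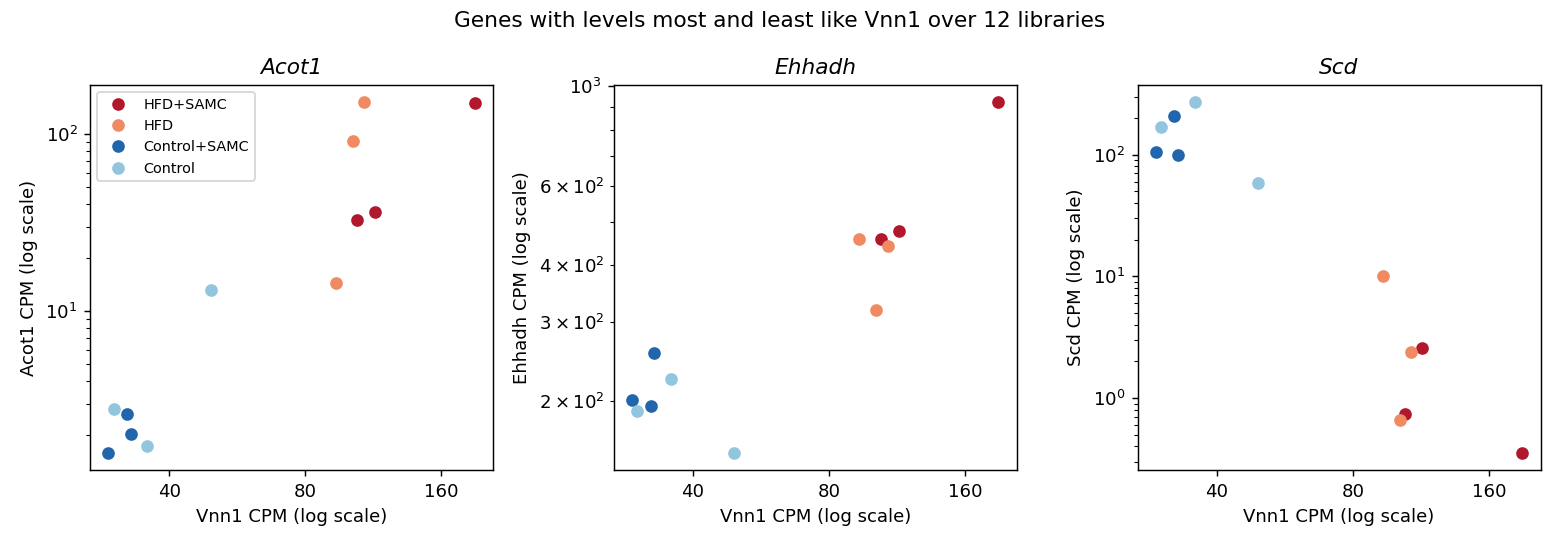
CPM of Acot1, Ehhadh and Scd (vertical axes, log scale) against that of Vnn1 (horizontal axis, log scale), 1 point per library, coloured by group. The libraries fall in a high fat cloud at 93.4 CPM of Vnn1 and above and a normal diet cloud at 49.4 CPM and below, with Acot1 and Ehhadh higher and Scd lower in the high fat cloud. The genes were picked by correlation with Vnn1 over these libraries, so this pattern was built into the choice. Acot1 and Ehhadh are also on the PPAR alpha list, and the other genes most like Vnn1 are not drawn.

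Among the 8 genes themselves, Pearson correlations of log2 CPM over the 12 libraries ran from -0.69 for Vnn1 with Pank3 to 0.68 for Pank1 with Pank2. After the group means were removed they were -0.27 for Vnn1 with Pank3 and 0.73 for Pank1 with Pank2. The extremes within groups were other pairs, -0.80 for Ppcs with Coasy and 0.74 for Pank3 with Coasy, which had -0.60 and -0.22 over all libraries. Vnn1 with Nudt19 had 0.66 over all libraries and 0.38 within groups. These are descriptions over libraries that share depth and scaling.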

How the data were processed

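RNA of 12 rat liver samples was sequenced as rRNA-depleted libraries with paired reads, per the labels' protocols. Reads were trimmed with Trimmomatic 0.36, per the submitters' processing notes, then aligned by HISAT2 and counted by HTSeq, as the labels' protocols state. No build, annotation or strand setting is given in the sources used here. The deposited table gives counts and RPKM, which equals count per length and library total. Groups come from the treatment labels. The 8 genes and the lists were chosen with earlier results of these data known.

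The deposited counts went into edgeR 4.0.16 (limma 3.58.1, R 4.3.3): filterByExpr, TMM, 1 robust quasi-likelihood fit of all 12 libraries, 8 residual degrees of freedom, two-sided, Benjamini-Hochberg over 15916 genes, threshold 0.05. These genes hold 99.96% of counts. All 8 genes were named in every contrast, list genes if called or at either extreme, and the 5 genes most and 5 least like Vnn1, by log2 CPM (prior count 2, mean at least 1). HFD against Control, diet averages and within-set contrasts were not tested. Alternatives were other scaling, no filter, DESeq2 1.42.0, a replicate block, fewer libraries, and RPKM. Simulated counts were used to check the fit. Within groups, chi-square over degrees of freedom between libraries was 87.9 to 645, and each was counted as its own replicate. Summed CPM was compared between groups for 11 marker lists. The highest estimate of 1 list in 1 contrast is not reported here.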

Additional observations from a re-analysis of the deposited data

How the results depend on the processing

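A group size of 3 libraries limits all of these results. Vnn1 in HFD+SAMC against Control+SAMC kept its direction in every alternative run, at 2.05 under the replicate block (adjusted p = 0.0222), 2.10 with only its groups (adjusted p = 0.0213), 2.10 in DESeq2 (adjusted p = 1.62e-13) and 1.79 to 2.27 with 1 library left out, with adjusted p-values of 0.00809 to 0.0656 in edgeR. Of the 8 genes, 0 passed without the 4 low-fibrinogen libraries and 0 to 1 with 1 library left out. Leaving out the 4 libraries leaves HFD with 1, assumed to vary like the others. Within-set values of the SAMC difference were not run, since within a set diet changes with SAMC.

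Of the 30 pathway genes in this contrast, 0 passed without the 4 low-fibrinogen libraries, 2 (Vnn1 and Fasn) with only the groups of the contrast, 3 in DESeq2 and 0 to 1 with 1 library left out. For SAMC averaged over diet 2 passed in DESeq2 and 0 to 1 with 1 library left out (Aldh1l1 without Control replicate 2 or Control+SAMC replicate 3). Of the PPAR alpha genes, 1 (Ehhadh) passed without a filter and 3 in DESeq2 in HFD+SAMC against Control+SAMC, and 0 to 1 (Cyp4a2) for SAMC averaged over diet with 1 library left out. The cause was not tested.

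Signs turned only for values that passed no test. Without the 4 low-fibrinogen libraries Nudt7 was -0.20 in HFD against Control, which was not tested, Pank1 was 0.0278 and Nudt7 0.19 in HFD+SAMC against HFD, Pank1 was 0.0457 in Control+SAMC against Control and 0.0367 for SAMC averaged over diet, and the interaction was 0.0087 for Ppcs and 0.75 for Nudt7. In Control+SAMC against Control Ppcs was 0.0029 without a filter, 6e-04 under the block and 0.0022 with only the groups of the contrast. For SAMC averaged over diet Vnn1 was -0.0248 and Nudt19 -0.0252 under the block, and Nudt19 was -2e-04 with relative log expression scaling. With 1 library left out, Pank2 was -0.0334 to 0.17 in HFD+SAMC against Control+SAMC and Nudt19 -0.39 to 0.0231 in HFD+SAMC against HFD. In HFD against Control, Pank1 was -0.0336 to 0.45 and Ppcs -0.29 to 0.0455. For diet averaged over SAMC, also not tested, Pank1 was -0.22 to 0.0519. In Control+SAMC against Control Pank1 was -0.19 to 0.21, Ppcs -0.22 to 0.11 and Nudt7 -0.51 to 0.0211. For SAMC averaged over diet Vnn1 was -0.088 to 0.18, Ppcs -0.16 to 0.0057 and Nudt19 -0.078 to 0.13. For the interaction Pank2 was -0.23 to 0.0325, Pank3 -0.70 to 0.0604, Ppcs -0.21 to 0.12 and Nudt7 -0.32 to 0.23.

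Counts over all genes moved more. HFD+SAMC against Control+SAMC had 10 genes past the threshold, but 21 without a filter, 2 under the block, 25 without the 4 low-fibrinogen libraries, 44 with only its groups, 249 in DESeq2 and 1 to 45 with 1 library left out. HFD+SAMC against HFD had 8, but 19, 0, 23 and 240 without a filter, without the 4 libraries, with only its groups and in DESeq2. Control+SAMC against Control had 19, but 6 under the block, 5 with only its groups and 199 in DESeq2. SAMC averaged over diet had 35, but 67 without a filter, 10 under the block and 403 in DESeq2. The interaction had 23, but 9 under the block, 2 without the 4 libraries and 118 in DESeq2. With 1 library left out these 4 counts were 1 to 27, 3 to 23, 13 to 68 and 7 to 19. On RPKM, the log2 ratio of HFD to Control was 0.20 for Ppcs (-0.08 on CPM), 0.51 for Pank2 (0.20), 0.43 for Coasy (0.12) and 0.99 for Nudt19 (0.68). These moved by at least their SD within groups. RPKM leaves out TMM scaling, whose factors were 0.795 to 0.967 in Control and 1.04 to 1.18 in HFD. The ratio of each of the 8 genes is therefore higher on RPKM. The labels do not say whether replicate numbers pair the samples. Of 15 same-numbered pairs 2 had a correlation over 0.1 after group means were removed, between -0.22 and 0.25 in all. Pairs with different numbers were not set beside them, so these values cannot decide whether samples are paired. Replacing TMM by relative log expression scaling moved the median of all genes by under 0.1.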
